A study of Homo sapiens with 6 samples.

Results

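The genes described here encode the nuclear part of the respiratory chain and the ATP synthase, and were taken by name from the deposited counts of H9 cells. A gene was a member if its symbol began with NDUF and a further letter, UQCR, COX4 to COX8 or ATP5, or was SDHA, SDHB, SDHC or SDHD. Symbols that ended in P and a number or held a hyphen were left out, which removed 175 pseudogenes, antisense and readthrough genes. This left 96 of 61541 genes, of which 90 passed the filter on low counts that 17678 genes passed. By function, 77 of the 96 are subunits: 37 of complex I, 4 of complex II, 8 of complex III, 11 of complex IV and 17 of complex V. The others are 8 complex I assembly factors (NDUFAF1 to NDUFAF8), 7 tissue isoforms of complex IV subunits, the supercomplex factor COX7A2L, the copies UQCRHL and ATP5MGL, and the ATP synthase inhibitor ATP5IF1. NDUFA4 and its isoform NDUFA4L2 were counted with complex IV, where the NDUFA4 protein is found.

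The respiratory chain in the inner mitochondrial membrane passes electrons from NADH (complex I) and succinate (complex II) through complex III and cytochrome c to complex IV, which reduces oxygen. Complexes I, III and IV pump protons, and complex V, the ATP synthase, uses their return to make ATP. Complexes I, III, IV and V combine subunits made from nuclear genes, which RNA polymerase II transcribes, with subunits made from the mitochondrial genome, which has its own polymerase, whereas complex II is wholly nuclear. Assembly factors build the complexes and insert their cofactors without staying in the mature enzyme.

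H9, a human T-cell lymphoma line that the labels give as wild type, was treated with the vehicle DMSO or with AZD4573, an inhibitor of CDK9, the kinase that releases paused RNA polymerase II. Each group had 3 bulk RNA-seq libraries, for which the labels name poly(A) RNA and the study's methods rRNA depletion, and the labels give 4 h for AZD4573 and no time for DMSO. All come from a single cell line, and the labels do not say whether the libraries were separate cultures, so the p-values measure the spread between libraries, which may be technical. The comparison asks how transcripts respond to acute CDK9 inhibition.

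Total counts ranged from 70367303 to 76571157 with DMSO and from 52101868 to 63795185 with AZD4573. Levels are given as CPM, a gene's counts relative to the library total after scaling by edgeR's TMM factors. Of the T-cell markers, CD3D, CD3E, CD3G, CD5 and TRAC were between 56.4 and 154 CPM with DMSO. In the same libraries CD4 was at 3.83 CPM, whereas CD2 and CD7 were at 0.105 and 0.602 CPM. Among markers of other cell types EPCAM (155 CPM), CD79A (57.8 CPM) and COL1A1 (6.31 CPM) were detected with DMSO, and HBB had no counts. Of 7 tested T-cell markers 6 were higher on the TMM scale and none lower, where 37.3% and 37.4% of all tested genes were. The summed level of the T-cell markers was 629 to 653 CPM over the DMSO libraries and 864 to 900 CPM over the AZD4573 libraries. Of 8 tested markers of other cell types 2 were higher, CD79A (log2 fold change 0.70) and CD14 (1.76, at 0.0724 CPM with DMSO). Another 2 were lower, COL1A1 (-0.69) and EPCAM (-0.21), and both counts are below the shares of all tested genes. The summed level of the markers of other cell types was 212 to 234 CPM with DMSO and 230 to 240 CPM with AZD4573. When the libraries were scaled to the mRNAs of the mitochondrial genome, 5 of the 8 higher markers were negative. The part of these markers in the results below was not tested. In bulk libraries fewer cells of a type and less RNA per cell cannot be told apart.

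On the TMM scale 69 of the 90 tested members were higher upon AZD4573 treatment, 7 were lower and 14 were not called at an adjusted p of 0.05 (edgeR's quasi-likelihood test, p-values adjusted by the Benjamini-Hochberg method). Over all tested genes 37.3% were higher and 37.4% lower, so that the members lay mostly on the higher side. With library size as the only scaling 58 members were higher and 14 lower, where 32.5% and 41.6% of all tested genes were. Scaled to the 13 mRNAs of the mitochondrial genome (mitochondrial scaling) 2 members were higher and 78 lower, where 12.1% and 67.2% of all tested genes were. The changes were small: the median log2 fold change was 0.32, against 0.03 over all tested genes, and 75 of 90 members lay above that general median. With a fold change of at least 1.5 as well, 11 members were higher and 3 lower, where 22.7% and 23.7% of all tested genes were. COX4I1 sat at that fold limit, with NDUFA13 and NDUFA7 just outside it. Each AZD4573 library lay above each DMSO library for 70 members and below for 10, whereas 39% and 38.7% of all tested genes were separated in these directions.

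Among the 77 subunits 62 were higher on the TMM scale, 2 lower and 13 not called. All 62 had negative log2 fold changes with mitochondrial scaling, which moved the median of all tested genes from 0.03 to -0.71. The direction of a subunit is therefore relative to the other nuclear transcripts of the same library. Below, a relative median is the median log2 fold change of a group minus that of all tested genes, which was the same under both scalings to the precision given.

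**Figure D1:**
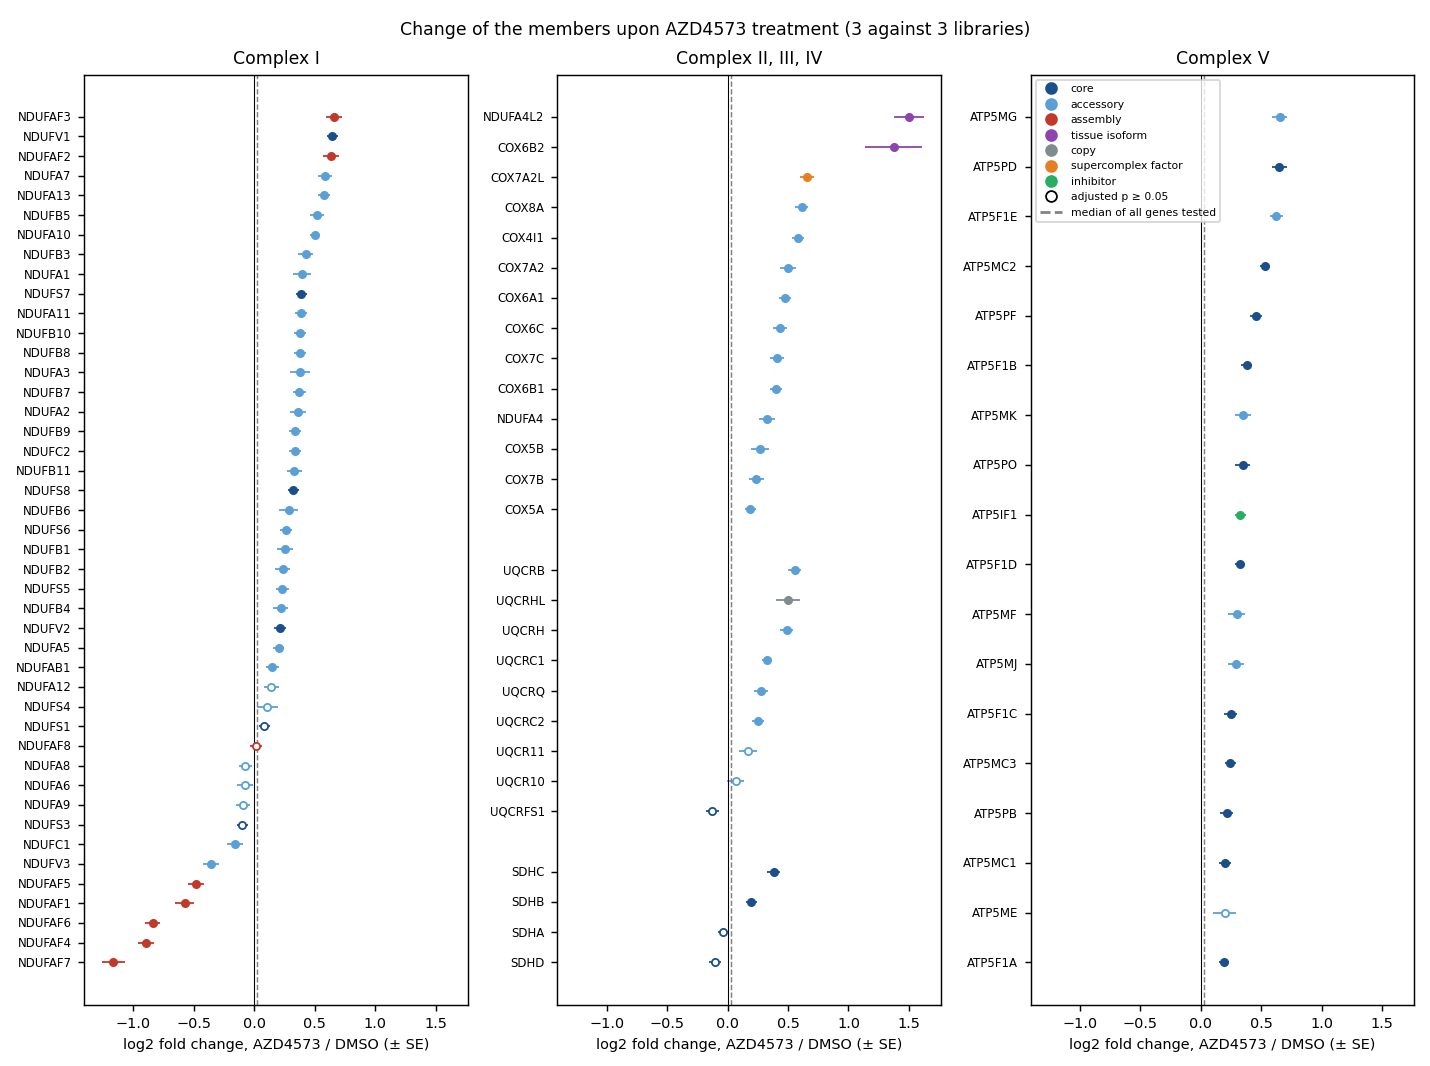
Log2 fold change (x axis, AZD4573 over DMSO, TMM scale) of the tested members, 1 row per named gene with bars for the standard error, by complex. Filled points passed an adjusted p of 0.05, and the dashed line is the median of all tested genes at 0.03. Most subunits sit to the right of the line, and the 5 lowest genes of complex I are assembly factors.

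The relative medians of the complexes differed in size, and no test of these differences was made. Complex IV had the highest relative median, 0.38, with all 11 subunits higher on the TMM scale. Complex V followed at 0.30 with 16 of 17 higher, then complex I at 0.29 with 28 of 37 higher and 2 lower, and complex III at 0.24 with 5 of 8 higher. Complex II was at 0.05, with 2 of 4 higher and none lower. When the shift was taken library by library, as the median of a complex relative to the DMSO mean minus that of all genes, complex IV stood at 0.43, 0.33 and 0.43 in AZD4573 libraries 1, 2 and 3. Complex V stood at 0.36, 0.25 and 0.33, complex I at 0.31, 0.22 and 0.30, complex III at 0.27, 0.18 and 0.29, and complex II at 0.06, 0.04 and 0.09.

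The order from complex IV down to complex II was the same in all 3 AZD4573 libraries, but the steps between neighbours among complexes IV, V, I and III were of the size of the spread between libraries. DMSO library 1 stood 0.07 to 0.09 above the DMSO mean in complexes I, III, IV and V, and AZD4573 library 2 was the lowest of its group in each complex. With the low-count filter removed, the relative medians were 0.25 for complex IV, 0.17 for V, 0.16 for I, 0.11 for III and -0.08 for II. An alternative chosen after seeing the data left out SDHA and SDHD, which share more than 10% of their exon bases with another gene. The relative median of complex II was then 0.26. These 2 genes had the lowest log2 fold changes of its 4, -0.04 and -0.11, so that leaving them out had to raise the median. The part of shared exon bases in the low position of complex II was not tested.

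**Figure D2:**
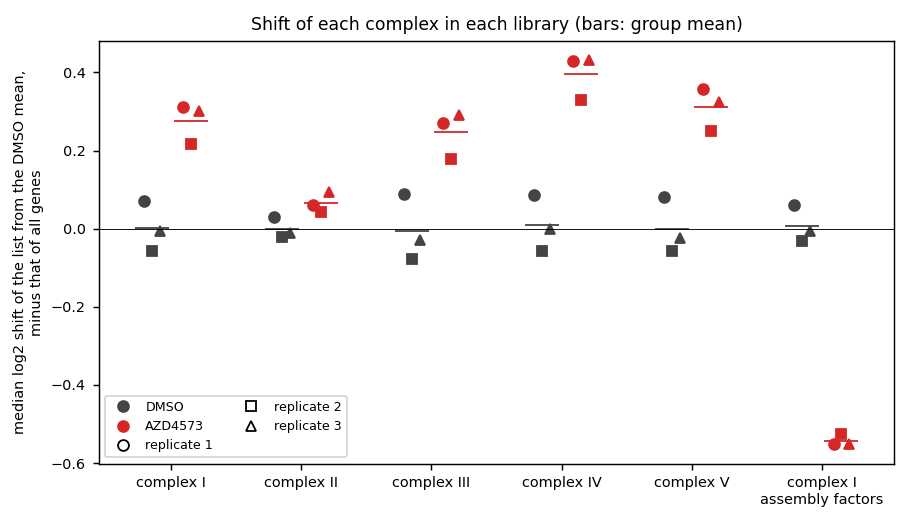
Median log2 shift of each list from the DMSO mean, minus that of all genes (y axis), in each of the 6 libraries, with bars for group means. The AZD4573 libraries sit above the DMSO libraries for complexes I, III, IV and V, close above them for complex II, and between -0.55 and -0.53 for the complex I assembly factors.

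The assembly factors of complex I carried the largest falls of all members. Of the 8 NDUFAF genes, 5 were lower, 2 higher and 1 not called on the TMM scale, with a median log2 fold change of -0.53. Over all tested genes 37.4% were lower and 37.3% higher. NDUFAF7, a methyltransferase that acts in complex I assembly, measured 13.4, 14.6 and 16.9 CPM with DMSO and 7.02, 6.25 and 6.73 CPM with AZD4573 (log2 fold change -1.17 ± 0.10 SE, adjusted p = 1.1e-07 by edgeR). NDUFAF4, an early assembly factor, measured 25.9, 26.6 and 26.2 CPM with DMSO and 15.5, 13.5 and 13.4 CPM with AZD4573 (log2 fold change -0.90 ± 0.07 SE, adjusted p = 5.14e-08 by edgeR). NDUFAF6, which also acts early in assembly, measured 39.1, 38.2 and 36.1 CPM with DMSO and 22.7, 20.2 and 20.5 CPM with AZD4573 (log2 fold change -0.84 ± 0.06 SE, adjusted p = 3.55e-08 by edgeR). In all 3 genes every AZD4573 library was below every DMSO library, and the gap between groups exceeded the range within either group. These were the only members lower by at least 1.5-fold.

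The other falls were smaller. NDUFAF1, a member of the membrane-bound assembly complex, measured 16.7, 15.3 and 14.5 CPM with DMSO and 10.6, 10.6 and 10.01 CPM with AZD4573 (log2 fold change -0.58 ± 0.08 SE, adjusted p = 1.17e-05 by edgeR). NDUFAF5, which hydroxylates the subunit NDUFS7, measured 15.98, 15.6 and 15.8 CPM with DMSO and 11, 11.3 and 11.5 CPM with AZD4573 (log2 fold change -0.49 ± 0.07 SE, adjusted p = 1.57e-05 by edgeR). The groups did not overlap in either gene. NDUFAF8, the binding partner of NDUFAF5, measured 99.6, 90.03 and 92.8 CPM with DMSO and 98.3, 89.7 and 96.8 CPM with AZD4573, and its groups overlapped (log2 fold change 0.01 ± 0.05 SE, adjusted p = 0.838 by edgeR). The partners NDUFAF5 and NDUFAF8 thus had different values, although the difference between them was not tested.

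A pair of NDUFAF genes went the other way on the TMM scale. NDUFAF3, the partner of NDUFAF4, measured 27.7, 23.4 and 25.4 CPM with DMSO and 39.3, 42.2 and 39.5 CPM with AZD4573 (log2 fold change 0.66 ± 0.07 SE, adjusted p = 7.66e-07 by edgeR, -0.08 with mitochondrial scaling). NDUFAF2, a late-acting chaperone and paralog of the subunit NDUFA12, measured 31.5, 27.2 and 28.4 CPM with DMSO and 48.4, 42.2 and 44.5 CPM with AZD4573 (log2 fold change 0.63 ± 0.07 SE, adjusted p = 1.59e-06 by edgeR, -0.10 with that scaling). Every AZD4573 library was above every DMSO library in both. NDUFAF3 shares 14.4% of its exon bases with DALRD3. Summed over the 8 genes, assembly factor counts were 10.92%, 10.97% and 10.95% of those of the complex I subunits with DMSO and 8.58%, 8.18% and 8.08% with AZD4573, a share within a library that no scaling changes. The groups did not overlap, and the exact permutation test gave its smallest possible two-sided p, 0.1.

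**Figure D3:**
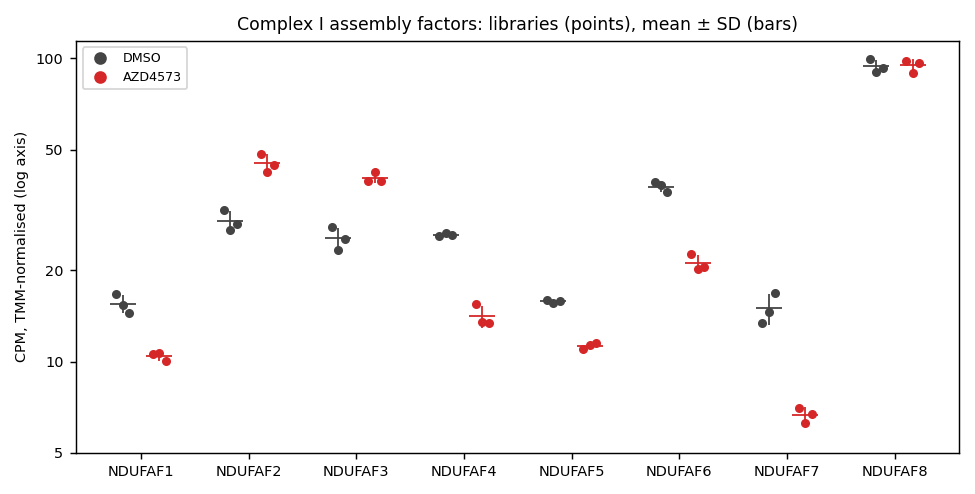
Levels of NDUFAF1 to NDUFAF8 (y axis, CPM after TMM scaling, log axis) in the 3 DMSO and 3 AZD4573 libraries, with bars for mean ± SD. The groups are apart with AZD4573 lower for NDUFAF1, NDUFAF4, NDUFAF5, NDUFAF6 and NDUFAF7, apart with AZD4573 higher for NDUFAF2 and NDUFAF3, and overlap for NDUFAF8.

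As examples of how the searched letters lie in these promoters, 4 that hold them are given, picked for their matches, of 2 assembly factors that fell and 2 subunits that rose on the TMM scale (negative with mitochondrial scaling). Each runs from 250 bases before to 50 bases after the gene's start on the gene's own strand, from RefSeq on GRCh38.p14. Capitals mark matches on either strand, overlaps allowed, to GCGCATGC (NRF1, nuclear respiratory factor 1), CCGGAAG (ETS factors, which include GABP) or ATGGCGGC (YY1). The windows are chr6:96897842-96898141 on the minus strand for NDUFAF4, chr20:13784778-13785077 on the plus strand for NDUFAF5, chr12:120437863-120438162 on the plus strand for COX6A1 and chr1:17053983-17054282 on the minus strand for SDHB.
NDUFAF4: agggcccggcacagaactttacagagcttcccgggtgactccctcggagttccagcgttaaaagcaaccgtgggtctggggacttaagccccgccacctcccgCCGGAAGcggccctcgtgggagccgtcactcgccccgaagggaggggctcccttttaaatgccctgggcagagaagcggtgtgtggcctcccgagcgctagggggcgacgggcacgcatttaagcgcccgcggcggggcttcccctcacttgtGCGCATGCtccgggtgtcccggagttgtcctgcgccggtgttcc
NDUFAF5: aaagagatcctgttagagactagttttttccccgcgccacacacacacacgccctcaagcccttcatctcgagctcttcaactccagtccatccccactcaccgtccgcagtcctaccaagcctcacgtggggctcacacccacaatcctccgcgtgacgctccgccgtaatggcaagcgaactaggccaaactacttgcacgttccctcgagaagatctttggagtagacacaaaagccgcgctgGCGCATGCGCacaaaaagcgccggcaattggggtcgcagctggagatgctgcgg
COX6A1: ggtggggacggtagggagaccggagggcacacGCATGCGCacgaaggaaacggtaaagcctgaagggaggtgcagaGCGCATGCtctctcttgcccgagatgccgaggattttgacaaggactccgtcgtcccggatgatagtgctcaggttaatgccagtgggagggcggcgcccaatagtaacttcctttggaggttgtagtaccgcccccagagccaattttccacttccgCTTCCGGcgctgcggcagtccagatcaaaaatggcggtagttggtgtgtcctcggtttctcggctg
SDHB: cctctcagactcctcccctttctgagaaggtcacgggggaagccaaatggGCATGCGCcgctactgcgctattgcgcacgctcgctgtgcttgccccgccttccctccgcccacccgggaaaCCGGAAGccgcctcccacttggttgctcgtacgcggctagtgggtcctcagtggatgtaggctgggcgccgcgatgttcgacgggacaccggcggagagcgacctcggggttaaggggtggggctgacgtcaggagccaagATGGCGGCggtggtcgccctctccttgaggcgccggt
NDUFAF4 held 1 NRF1 and 1 ETS match, NDUFAF5 held 2 overlapping NRF1 matches, COX6A1 held 2 NRF1 matches and 1 ETS match, and SDHB held 1 match to each of the 3 motifs.

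Promoters were found for 77 of the 96 members, 64 of them subunits. The NRF1 letters stood in 13 of the 64 subunit promoters (20.3%), the ETS letters in 20 (31.2%) and the YY1 letters in 12 (18.8%). In all 27305 promoters of the table the shares were 3.27%, 10.7% and 3.21%, and in the 11422 promoters of tested genes 5.33%, 18.8% and 5.99%. TATAAA stood in 9.38% of subunit promoters, in 12% of all promoters and in 6.01% of the promoters of tested genes. The YY1 letters were in 9 of 32 complex I promoters and in none of 9 for complex IV or 13 for complex V, whereas the ETS letters were in 5 of 9 for complex IV. Of the 6 lower members with a promoter, 4 held none of the NRF1, ETS and YY1 letters (NDUFAF7, NDUFAF1, NDUFV3 and NDUFC1). So did 30 of the 54 higher members and 4 of the 14 members not called. The same share over all tested genes was not counted. Among the 7 promoters of complex I assembly factors, 2 held the NRF1 letters, 1 the ETS letters and none the YY1 letters. Subunits with the NRF1 letters had a median log2 fold change of 0.25 and those without 0.32. These medians were 0.38 and 0.25 for the ETS letters, and 0.23 and 0.29 for the YY1 letters. Matches describe the letters in the window only.

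The core subunits of complex I made from nuclear genes were mostly higher on the TMM scale. NDUFV1, which binds FMN and takes electrons from NADH, had the largest change of them, with 214, 219 and 220.1 CPM with DMSO and 325, 349.6 and 348 CPM with AZD4573 (log2 fold change 0.65 ± 0.04 SE, adjusted p = 9.7e-09 by edgeR, -0.09 with mitochondrial scaling). The AZD4573 libraries all lay above the DMSO range. NDUFS7, NDUFS8 and NDUFV2, which carry iron-sulfur clusters, were higher by 0.21 to 0.39 on the log2 TMM scale, and negative with the other scaling. Exon bases shared with other genes made up 51.4% in NDUFS7, 28.4% in NDUFV2, 12% in NDUFV1 and 3.2% in NDUFS8. NDUFS1 (0.08 ± 0.04 SE) and NDUFS3 (-0.10 ± 0.05 SE) were not called, although their groups did not overlap.

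Among the 30 accessory complex I subunits 23 were higher on the TMM scale and 2 lower. All 11 NDUFB subunits of the membrane arm were higher, from 0.22 (NDUFB4) to 0.52 (NDUFB5) on the log2 TMM scale, and all 11 were negative with mitochondrial scaling. NDUFA subunits were more varied: 8 of 12 were higher on the TMM scale, led by NDUFA7 and NDUFA13 at 0.58, and NDUFA6, NDUFA8, NDUFA9 and NDUFA12 were not called, with values from -0.09 to 0.14. NDUFA13 shares 21.0% of its exon bases with other genes and NDUFA7 32.5%. The 2 lower subunits were NDUFV3, a small subunit of the NADH-oxidising module, and NDUFC1, a small subunit of the membrane arm. NDUFV3 measured 28.4, 30.01 and 29.2 CPM with DMSO and 24.1, 23.5 and 20.8 CPM with AZD4573 (log2 fold change -0.36 ± 0.06 SE, adjusted p = 0.000211 by edgeR). NDUFC1 measured 19.4, 17.6 and 18.3 CPM with DMSO and 16.7, 17.1 and 15.7 CPM with AZD4573 (log2 fold change -0.16 ± 0.07 SE, adjusted p = 0.0439 by edgeR). NDUFC1 shares 31.5% of its exon bases with MGARP and NAA15, and its call was lost with DESeq2, with RLE factors and with the replicate number as a block, whose log2 fold changes all lay at -0.16, and with at least 10 counts in every library (-0.12). It was also lost without AZD4573 library 3 (-0.13), DMSO library 1 (-0.13) or DMSO library 3 (-0.18).

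The flavoprotein SDHA of complex II, which oxidises succinate, measured 124, 129 and 127 CPM with DMSO and 120.3, 124 and 126 CPM with AZD4573 and was not called (log2 fold change -0.04 ± 0.04 SE, adjusted p = 0.377 by edgeR). Its groups overlapped, and SDHA pseudogenes held counts equal to 15.5% of those of the gene, so its value is uncertain. SDHB, the iron-sulfur subunit, measured 74.9, 71.6 and 72.1 CPM with DMSO and 85.1, 80.7 and 84.8 CPM with AZD4573 (log2 fold change 0.20 ± 0.05 SE, adjusted p = 0.00143 by edgeR, -0.54 with mitochondrial scaling). The membrane anchors SDHC and SDHD had values of opposite sign on the TMM scale, a difference that was not tested. SDHC measured 32.7, 31.9 and 31.7 CPM with DMSO and 41.3, 42.8 and 41.2 CPM with AZD4573 (log2 fold change 0.38 ± 0.05 SE, adjusted p = 1.13e-05 by edgeR, -0.36 with that scaling). SDHD measured 50.5, 48.4 and 48.5 CPM with DMSO and 46.3, 44.4 and 46.4 CPM with AZD4573, with every AZD4573 library lower but no call (log2 fold change -0.11 ± 0.05 SE, adjusted p = 0.0629 by edgeR).

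In complex III the catalytic Rieske iron-sulfur protein UQCRFS1, the only redox subunit that the name rule takes, was not called. It measured 136, 118 and 119 CPM with DMSO and 111, 117 and 114 CPM with AZD4573 (log2 fold change -0.13 ± 0.06 SE, adjusted p = 0.0582 by edgeR). DMSO library 1 was the high value, and the gene was called lower when DMSO library 2 or 3 was left out (-0.18 and -0.17). Of the 7 other subunits 5 were higher on the TMM scale and negative with mitochondrial scaling. UQCRB, a subunit at the quinone-binding site, measured 98.9, 86.5 and 89.3 CPM with DMSO and 133, 129 and 141 CPM with AZD4573 (log2 fold change 0.55 ± 0.06 SE, adjusted p = 8.25e-07 by edgeR). UQCRH, the hinge protein that binds cytochrome c1, was higher by 0.49 ± 0.05 SE on the same scale. UQCRHL, its near-identical copy, measured 5.61, 4.82 and 5.17 CPM with DMSO and 7.53, 6.89 and 7.68 CPM with AZD4573 (log2 fold change 0.50 ± 0.10 SE, adjusted p = 0.000428 by edgeR, -0.24 with mitochondrial scaling). UQCRHL took 7.23% ± 0.232 of the counts of the pair with DMSO and 7.29% ± 0.0678 with AZD4573 (SD, n = 3; exact permutation p = 0.9), and the counting may have split reads between the copies.

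Each of the 11 complex IV subunits was higher on the TMM scale, from 0.19 (COX5A) to 0.61 (COX8A), and negative with mitochondrial scaling. COX4I1, the largest nuclear subunit, measured 305, 275 and 275 CPM with DMSO and 418, 419 and 447 CPM with AZD4573 (log2 fold change 0.58 ± 0.05 SE, adjusted p = 1.49e-07 by edgeR). COX8A, one of its smallest subunits, measured 94.7, 87.5 and 87.4 CPM with DMSO and 138, 128 and 146 CPM with AZD4573 (log2 fold change 0.61 ± 0.05 SE, adjusted p = 2.27e-07 by edgeR). COX8A shares 35.4% of its exon bases with an overlapping gene. Groups did not overlap for any of the 11.

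The isoforms of complex IV subunits were read in pairs. COX4I2, COX6A2, COX7A1, COX7B2 and COX8C, the lung, muscle, testis or other tissue forms, were not tested, with at most 3 counts in any library. ATP5MGL, a copy of the ATP synthase gene ATP5MG, was also not tested, with at most 4 counts. A count of 0 allows up to 3 counts, from 0.0382 CPM in DMSO library 1 to 0.0589 CPM in AZD4573 library 1, which covers counting error only. Their common forms measured 285 (COX4I1), 155 (COX6A1), 56.2 (COX7A2), 50.2 (COX7B) and 89.9 CPM (COX8A) on average with DMSO. A pair of isoforms with low counts rose most among all members. NDUFA4L2, known as a hypoxia-induced paralog of NDUFA4, measured 2.75, 2.18 and 2.59 CPM with DMSO and 6.86, 7.79 and 6.68 CPM with AZD4573 (log2 fold change 1.5 ± 0.12 SE, adjusted p = 9.69e-08 by edgeR). COX6B2, known as the testis form of COX6B1, measured 0.535, 0.669 and 0.489 CPM with DMSO and 1.20, 1.61 and 1.57 CPM with AZD4573 (log2 fold change 1.37 ± 0.23 SE, adjusted p = 0.000121 by edgeR). Groups were apart in both, and these were the only members still called higher with mitochondrial scaling. COX6B2 shares 29.1% of its exon bases with another gene.

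NDUFA4 and COX6B1, their common counterparts, were higher by 0.33 ± 0.06 and 0.40 ± 0.05 SE on the log2 TMM scale, and were negative with the other scaling (-0.41 and -0.34). COX7A2L, which joins complexes III and IV into supercomplexes, measured 82.9, 72.4 and 70.3 CPM with DMSO and 115, 116 and 124 CPM with AZD4573 (log2 fold change 0.66 ± 0.06 SE, adjusted p = 3.54e-07 by edgeR, -0.08 with mitochondrial scaling). Every AZD4573 library was above every DMSO library.

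Of the 17 ATP synthase subunits all but ATP5ME were called higher on the TMM scale, and all 17 were negative with mitochondrial scaling. ATP5ME shares 61.3% of its exon bases with MYL5. In the catalytic head and central stalk 5 of 5 were higher, in the peripheral stalk 4 of 4 and in the membrane part 7 of 8. The beta and alpha subunits ATP5F1B and ATP5F1A were at 707 ± 36.7 and 605 ± 15.5 CPM with DMSO (SD, n = 3). With AZD4573 they were at 919 ± 34.1 and 691 ± 9.19 CPM. Per kb of transcript, ATP5F1B had the highest mean level of all members with DMSO (402 CPM per kb) ahead of COX4I1 (374 CPM per kb), and with AZD4573 COX4I1 (561 CPM per kb) stood above ATP5F1B (523 CPM per kb).

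The largest rises of complex V on the TMM scale were spread over its parts. ATP5MG, a membrane subunit, measured 96.3, 81.5 and 83.5 CPM with DMSO and 132, 131 and 148 CPM with AZD4573 (log2 fold change 0.65 ± 0.07 SE, adjusted p = 8.59e-07 by edgeR). ATP5PD, of the peripheral stalk, measured 62.2, 52.7 and 54.7 CPM with DMSO and 86.1, 85.3 and 94.7 CPM with AZD4573 (log2 fold change 0.65 ± 0.06 SE, adjusted p = 7.08e-07 by edgeR). ATP5F1E, the epsilon subunit of the central stalk, measured 117, 105 and 103 CPM with DMSO and 168, 165 and 169 CPM with AZD4573 (log2 fold change 0.63 ± 0.05 SE, adjusted p = 1.04e-07 by edgeR). Exon bases shared with other genes made up 23.2% in ATP5F1E, 19.1% in ATP5PD and 5.8% in ATP5MG. All 3 had groups that did not overlap, and all were near -0.1 with mitochondrial scaling (-0.09, -0.09 and -0.11). ATP5IF1, which blocks reverse rotation of the enzyme, measured 181, 171 and 179 CPM with DMSO and 232, 215 and 218 CPM with AZD4573 (log2 fold change 0.33 ± 0.04 SE, adjusted p = 1.55e-05 by edgeR, -0.41 with that scaling), a change close to the complex V median of 0.32.

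The c-ring of the ATP synthase is built from 1 mature protein that the 3 genes ATP5MC1, ATP5MC2 and ATP5MC3 each encode. ATP5MC1 measured 48.5, 47 and 49.7 CPM with DMSO and 57.3, 52.96 and 56.8 CPM with AZD4573. ATP5MC2 measured 77.6, 75.2 and 74.2 CPM with DMSO and 108, 111 and 108 CPM with AZD4573. ATP5MC3 measured 111, 102 and 106 CPM with DMSO and 122, 126 and 129 CPM with AZD4573. In all 3 genes every AZD4573 library was above every DMSO library on this scale. ATP5MC2 was higher by 0.53 ± 0.04 SE, against 0.20 ± 0.05 and 0.24 ± 0.05 for ATP5MC1 and ATP5MC3 on the log2 TMM scale, and all were negative with mitochondrial scaling. As shares of the summed counts per transcript length, ATP5MC2 was 51.0%, 51.5% and 49.9% with DMSO and 55.8%, 57.4% and 55.3% with AZD4573. ATP5MC1 went from 31.8% ± 0.825 to 28.02% ± 1.15 and ATP5MC3 from 17.4% ± 0.427 to 15.8% ± 0.388 (SD, n = 3). No share overlapped between the groups, and the exact permutation test gave its smallest possible two-sided p of 0.1 for each. Shares do not depend on scaling, and by counts without length ATP5MC1 fell by 1.88 percentage points in place of 3.78. The order of the genes depended on the division by length. By counts ATP5MC3 had the largest mean share with DMSO, 46.1%, ahead of ATP5MC2 at 32.9% and ATP5MC1 at 21.0%.

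Nuclear and mitochondrially encoded mRNAs that serve the same complexes were set against each other within each library. All 13 mitochondrially encoded mRNAs were higher on the TMM scale, with a median log2 fold change of 0.71, and they made up 3.13% ± 0.0929 of counts with DMSO and 4.85% ± 0.162 with AZD4573 (SD, n = 3). The nuclear-encoded subunits made up 0.729% ± 0.0269 and 0.852% ± 0.0209. The ratio of nuclear to mitochondrially encoded counts over complexes I, III, IV and V was 0.240, 0.217 and 0.215 with DMSO and 0.178, 0.161 and 0.171 with AZD4573. Each AZD4573 library was thus below each DMSO library (exact permutation test, two-sided p = 0.1, the smallest possible). By complex the ratio with AZD4573 was 0.765 times that with DMSO in complex I, 0.730 in complex III, 0.801 in complex IV and 0.757 in complex V. The groups did not overlap in any of the 4.

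**Figure D4:**
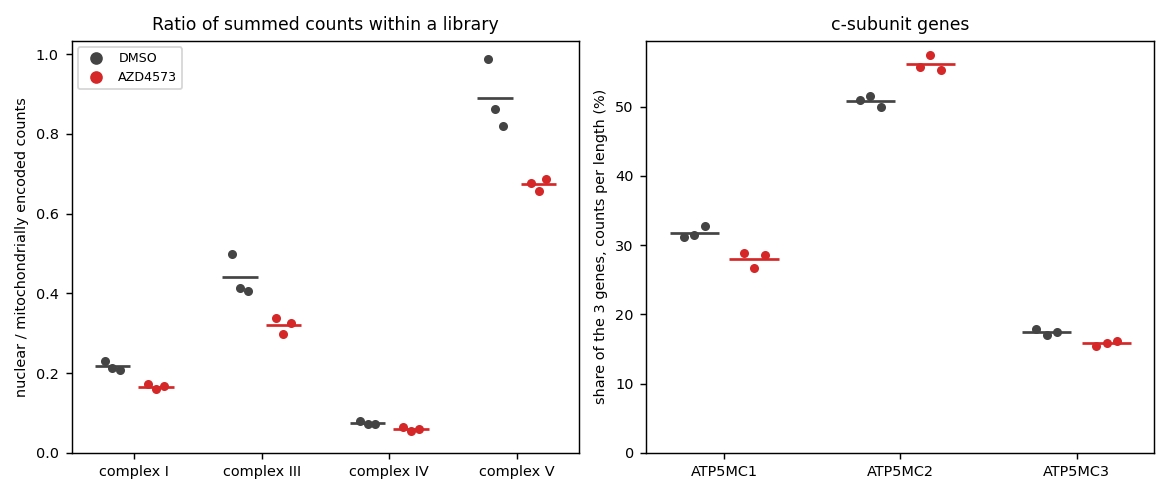
Left, summed counts of nuclear-encoded over mitochondrially encoded subunits of complexes I, III, IV and V in each library, with lines for group means. Right, share of each c-subunit gene in the summed counts per length of the 3 genes. The AZD4573 points lie below the DMSO points in each complex, and only the share of ATP5MC2 is higher with AZD4573.

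Assembly factors outside the name rule were read from a list of 42 tested genes, of which 22 were lower and 14 higher on the TMM scale and 38 lower and none higher with mitochondrial scaling. The share of all tested genes was 37.4% lower and 37.3% higher on the TMM scale, so that 14 of 42 higher is near that share, and 67.2% and 12.1% with mitochondrial scaling. On the TMM scale the list had a median log2 fold change of -0.17. The 21 factors that share at most 10% of their exon bases with other genes had a median of 0.02, and the other 21 of -0.21. The list median differed by complex: -0.49 for complex II (4 genes), -0.16 for complex IV (19 genes), -0.09 for complex III (6 genes), 0.04 for complex V (4 genes) and 0.15 for complex I (9 genes). Thus the remaining complex I factors did not share the low median of the NDUFAF genes. The largest falls, by edgeR's log2 fold change, were PET117 (-3.17) and COA7 (-1.48) of complex IV, TMEM70 (-2.06), which helps form the c-ring of the ATP synthase, and TMEM186 (-1.28) of complex I. SCO2, which delivers copper to complex IV, was at -0.92, and COX10, which makes heme O for it, at -0.82. BCS1L, which inserts the Rieske protein UQCRFS1, was at -0.78, and SDHAF2, which aids the attachment of FAD to SDHA, at -0.73. Exon bases shared with other genes made up 88.2% in SCO2, 78.3% in PET117 (with KAT14), 44.8% in SDHAF2, 30.7% in TMEM186, 13.5% in BCS1L and 11.5% in TMEM70, so these values are less certain than those of COA7 and COX10, at 0 and 0.1%.

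PET117 went from 9.33 ± 0.252 to 1.05 ± 0.356 CPM and TMEM70 from 39.9 ± 3.47 to 9.61 ± 1.24 CPM (SD, n = 3), and the groups did not overlap in either. Members of the list that were higher on the TMM scale included SDHAF4 (0.97), COA5 (0.85), SURF1 (0.81) and COX15 (0.61), which makes heme A and had -0.13 with mitochondrial scaling. COX15 shares 27.9% of its exon bases with other genes. COX10 and COX15, successive enzymes of heme A synthesis, thus had values of opposite sign on the TMM scale.

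**Figure D5:**
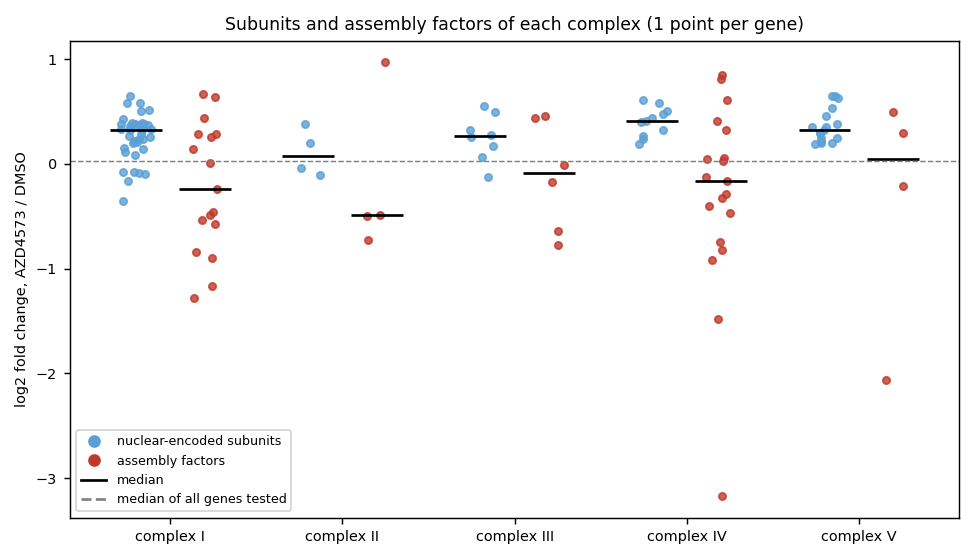
Log2 fold change (y axis, AZD4573 over DMSO, TMM scale) of the nuclear-encoded subunits and of the assembly factors (NDUFAF genes and those outside the name rule) of each complex, 1 point per gene with bars for medians. The subunits lie within -0.36 to 0.65, whereas the assembly factors spread from -3.17 to 0.97.

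CYCS, which encodes the electron carrier cytochrome c, went from 241 ± 9.90 to 195 ± 5.70 CPM (log2 fold change -0.31, adjusted p = 2.36e-05 by edgeR). Of 12 tested regulators of mitochondrial biogenesis 8 were lower and 2 higher on the TMM scale, where 37.4% and 37.3% of all tested genes were. With mitochondrial scaling all 12 were lower, as were 67.2% of all tested genes. TFB2M, a mitochondrial transcription factor, had a log2 fold change of -1.57. TFAM, which packages mitochondrial DNA and takes part in its transcription, was at -0.44, and POLRMT, the mitochondrial RNA polymerase, at -0.29. NRF1, whose letters stood in 13 subunit promoters, was at -0.73, and the GABP subunit genes GABPB1 and GABPA were at -0.77 and -0.08, the latter not called. GABPB2, a further GABP subunit gene, was higher by 0.33 on the TMM scale. YY1 was higher by 0.19 on the TMM scale and at -0.55 with mitochondrial scaling.

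Shorter genes had somewhat higher fold changes. Across the 90 tested members Spearman's rho between genomic span and log2 fold change was -0.24, and across 17638 tested genes -0.10, where the points are genes of the same 6 libraries and not replicates. The members spanned a median of 12604 bases and all tested genes 23235. NDUFAF6 and NDUFAF2, with spans of 220923 and 209355 bases, had log2 fold changes of -0.84 and 0.63 on the TMM scale (NDUFAF2 at -0.10 with mitochondrial scaling). Of the 77 subunits 30 share more than 10% of their exon bases with another gene, and the counting ignored strand. Without them the relative medians were 0.24 for complex I, 0.30 for complex III, 0.34 for complex IV and 0.27 for complex V.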

How the data were processed

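Bulk RNA-seq libraries of H9 cells, 3 treated with DMSO and 3 with AZD4573, were grouped by their labels. The authors trimmed reads with cutadapt 2.3, aligned them to GRCh38 with STAR 2.7.8a and estimated counts per gene with RSEM 1.3.3, which ignores strand by default. The deposited values are expected counts in whole numbers, not normalized, for 61541 genes, and 5 further entries that are not Ensembl genes were left out. They were analysed in R 4.3.3 with edgeR 4.0.16: filter on low counts (minimum 10), TMM factors, quasi-likelihood test without a replicate block, and Benjamini-Hochberg adjustment over all 17678 genes tested. The alternatives were DESeq2 1.42.0, RLE factors, library size only, scaling to 13 mitochondrially encoded mRNAs, other filters, a replicate block and leaving out each library. Ratios were compared by the exact permutation test, whose smallest p is 0.1. The procedure was tested on simulated data. Replicate libraries all differed by more than sampling noise, with a chi-square of 5.62 to 21.5 for each degree of freedom. Gene positions came from GENCODE and promoters from RefSeq.

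The tested members were eligible to be named (1 of them, counted in all totals, is not reported here), with per-library values for the largest changes of each complex, the SDH, c-subunit and NDUFAF genes and isoforms. Members and lists were chosen with earlier results of these data known. The labels give poly(A) RNA, whereas the study's methods describe rRNA depletion.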

Additional observations from a re-analysis of the deposited data

How the results depend on the processing

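The scaling of the libraries mattered most. With library size only, 14 members were lower, 5 of them and 2 of the higher members past 1.5-fold. Scaled to the mitochondrially encoded mRNAs (mitochondrial scaling), 78 members were lower and 2 higher, with 20 and 2 past 1.5-fold. With a 2-fold limit on the TMM scale, 1 was lower and 2 higher. Over all genes the median was -0.71 with mitochondrial scaling, -0.08 with library size only and 0.11 with no filter.

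The log2 fold changes that turned negative with mitochondrial scaling included, for complex I, NDUFAF8 -0.72, NDUFS1 -0.66, NDUFS4 -0.63, NDUFA12 -0.60, NDUFAB1 -0.59, NDUFA5 -0.54, NDUFV2 -0.53, NDUFB4 -0.52, NDUFS5 -0.51, NDUFB2 -0.51, NDUFB1 -0.48, NDUFS6 -0.48, NDUFB6 -0.45, NDUFS8 -0.42, NDUFB11 -0.41, NDUFC2 -0.40, NDUFB9 -0.40, NDUFA2 -0.38, NDUFB7 -0.37, NDUFA3 -0.36, NDUFB8 -0.36, NDUFB10 -0.36, NDUFA11 -0.35, NDUFS7 -0.35, NDUFA1 -0.34, NDUFB3 -0.31, NDUFA10 -0.24, NDUFB5 -0.22, NDUFA13 -0.16, NDUFA7 -0.16, NDUFAF2 -0.10, NDUFV1 -0.0935, NDUFAF3 -0.0782. For complexes II and III they were SDHB -0.54, SDHC -0.36, UQCR10 -0.67, UQCR11 -0.57, UQCRC2 -0.49, UQCRQ -0.46, UQCRC1 -0.41, UQCRH -0.25, UQCRHL -0.24, UQCRB -0.18. For complex IV and its supercomplex factor they were COX5A -0.55, COX7B -0.50, COX5B -0.47, NDUFA4 -0.41, COX6B1 -0.34, COX7C -0.33, COX6C -0.30, COX6A1 -0.27, COX7A2 -0.24, COX4I1 -0.15, COX8A -0.13, COX7A2L -0.0845. For complex V they were ATP5F1A -0.55, ATP5ME -0.53, ATP5MC1 -0.54, ATP5PB -0.53, ATP5MC3 -0.50, ATP5F1C -0.49, ATP5MJ -0.44, ATP5MF -0.44, ATP5F1D -0.42, ATP5IF1 -0.41, ATP5PO -0.39, ATP5MK -0.39, ATP5F1B -0.36, ATP5PF -0.29, ATP5MC2 -0.21, ATP5F1E -0.11, ATP5PD -0.0895, ATP5MG -0.0891. Outside the name rule they included COX15 -0.13 and YY1 -0.55. With library size only NDUFAF8 (-0.0912), NDUFS1 (-0.0208) and UQCR10 (-0.0374) turned negative, and with no filter the NDUFAF8 log2 fold change was -0.0303. None of these 3 was called in the fit as reported. NDUFAF8 was also negative without AZD4573 library 1, AZD4573 library 3, DMSO library 2 or DMSO library 3, with a range from -0.0296 to 0.0477 over the libraries left out, and UQCR10 without AZD4573 library 1 (-0.0125).

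With no filter, which tests 31323 genes, the relative medians were 0.16, -0.0782, 0.11, 0.25 and 0.17 for complexes I to V. For complex II it was 0.10 with 10 counts in every library and, in an alternative chosen after seeing the data, 0.26 without genes sharing exon bases. The change in the ATP5MC1 share was -1.88 percentage points without division by length, also chosen after seeing the data. Without genes sharing exon bases, a further alternative chosen after seeing the data, the median of the assembly factors outside the name rule was 0.0222 in place of -0.17. The cause of these shifts was not tested.

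Leaving out 1 library at a time gave 6 to 8 lower and 68 to 71 higher members, and 3 to 4 and 8 to 14 past 1.5-fold. The relative medians ranged from 0.22 to 0.30, 0.02 to 0.06, 0.20 to 0.28, 0.33 to 0.42 and 0.27 to 0.33 for complexes I to V. Calls were lost for NDUFAB1 (0.13 without AZD4573 library 1, 0.16 without AZD4573 library 2, 0.14 without AZD4573 library 3, 0.10 without DMSO library 2, 0.12 without DMSO library 3), NDUFC1 (-0.13 without AZD4573 library 3, -0.13 without DMSO library 1, -0.18 without DMSO library 3). Calls were gained for ATP5ME (0.29 without AZD4573 library 2), NDUFA12 (0.19 without AZD4573 library 2, 0.19 without DMSO library 1), NDUFA9 (-0.16 without AZD4573 library 3), NDUFS3 (-0.14 without DMSO library 3), SDHD (-0.12 without AZD4573 library 1), UQCR11 (0.22 without AZD4573 library 2, 0.24 without DMSO library 1), UQCRFS1 (-0.18 without DMSO library 2, -0.17 without DMSO library 3). The change in ATP5MC1 share ranged from -4.20 to -3.12 percentage points, and that in the nuclear to mitochondrially encoded ratio from -0.0586 to -0.0459.

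Replicate numbers were not shown to pair the libraries: deviations of same-numbered libraries correlated at -0.02, 0.04 and 0.03 across genes. With the replicate number as a block, 6 members were lower and 72 higher. DESeq2 gave 6 and 70.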
